A study of Mus musculus with 2 samples.

Results

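The transcripts of 8 complement genes, C1qa, C1qb, C1qc, C3, Cfb, Cfp, C3ar1 and C5ar1, were followed across the immune cells of mouse liver tumours. They were chosen by symbol from 32285 genes, and all 8 were detected. Complement is a cascade of plasma proteins that marks microbes and dying cells for uptake. C1q, built from the chains of C1qa, C1qb and C1qc, recognizes antibody and cell debris and opens the classical pathway. C3 is the component on which all pathways meet. Factor B (Cfb) supplies the protease of the alternative pathway convertase, and properdin (Cfp) stabilizes that convertase. C3ar1 and C5ar1 encode the receptors for the C3a and C5a fragments, which attract and activate myeloid cells. Hepatocytes make most circulating complement, whereas C1q is made largely by macrophages and other myeloid cells.

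Live CD45+ cells were sorted from Hepa1-6 tumours, a mouse hepatoma line implanted into the liver of C57/BL6 mice of WT genotype. One group of mice received anti-PD-1, an antibody that blocks the inhibitory receptor PD-1, and the other received an isotype control (IgG). All groups carried the same tumour line, and the labels state neither their age nor how many were pooled. Each group is 1 library of 10x 3′ v2 chemistry, so the groups could not be tested against each other. Intervals reflect only the counting of molecules, or of cells where shares of cells are given. They leave out differences between mice or libraries, and the cells of a library are not replicates of its treatment. Depth was 72148493 unique molecular identifiers (UMIs) over 10149 anti-PD-1 barcodes and 67520433 over 9683 isotype barcodes. Filters left 9711 anti-PD-1 cells (median 6303 UMIs) and 9278 isotype cells (median 6124). Ptprc, the gene of CD45, had a UMI in 76.6% of anti-PD-1 and 75.3% of isotype cells. The libraries shared 140 barcodes.

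Cells were placed in classes by counting detected markers of fixed panels, none of which holds a complement gene. Monocyte and macrophage cells were split into those with more macrophage than monocyte markers (797 anti-PD-1 and 886 isotype cells, here macrophages), those with equal numbers (304 and 309), and those with more monocyte markers (3266 and 2573, here classical monocytes). These are ranges along 1 continuum: 2152 of the 8135 cells in them lay within 1 marker of equality, and the median classical monocyte carried 6 monocyte and 3 macrophage markers. Levels are CPM, a gene's UMIs per 1000000 UMIs of the class, and each ratio is the log2 of the anti-PD-1 level divided by the isotype level. A level combines the number of expressing cells with the RNA in each, so the share of cells with a UMI is given too, after thinning every cell to 1000 UMIs.

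**Figure D1:**
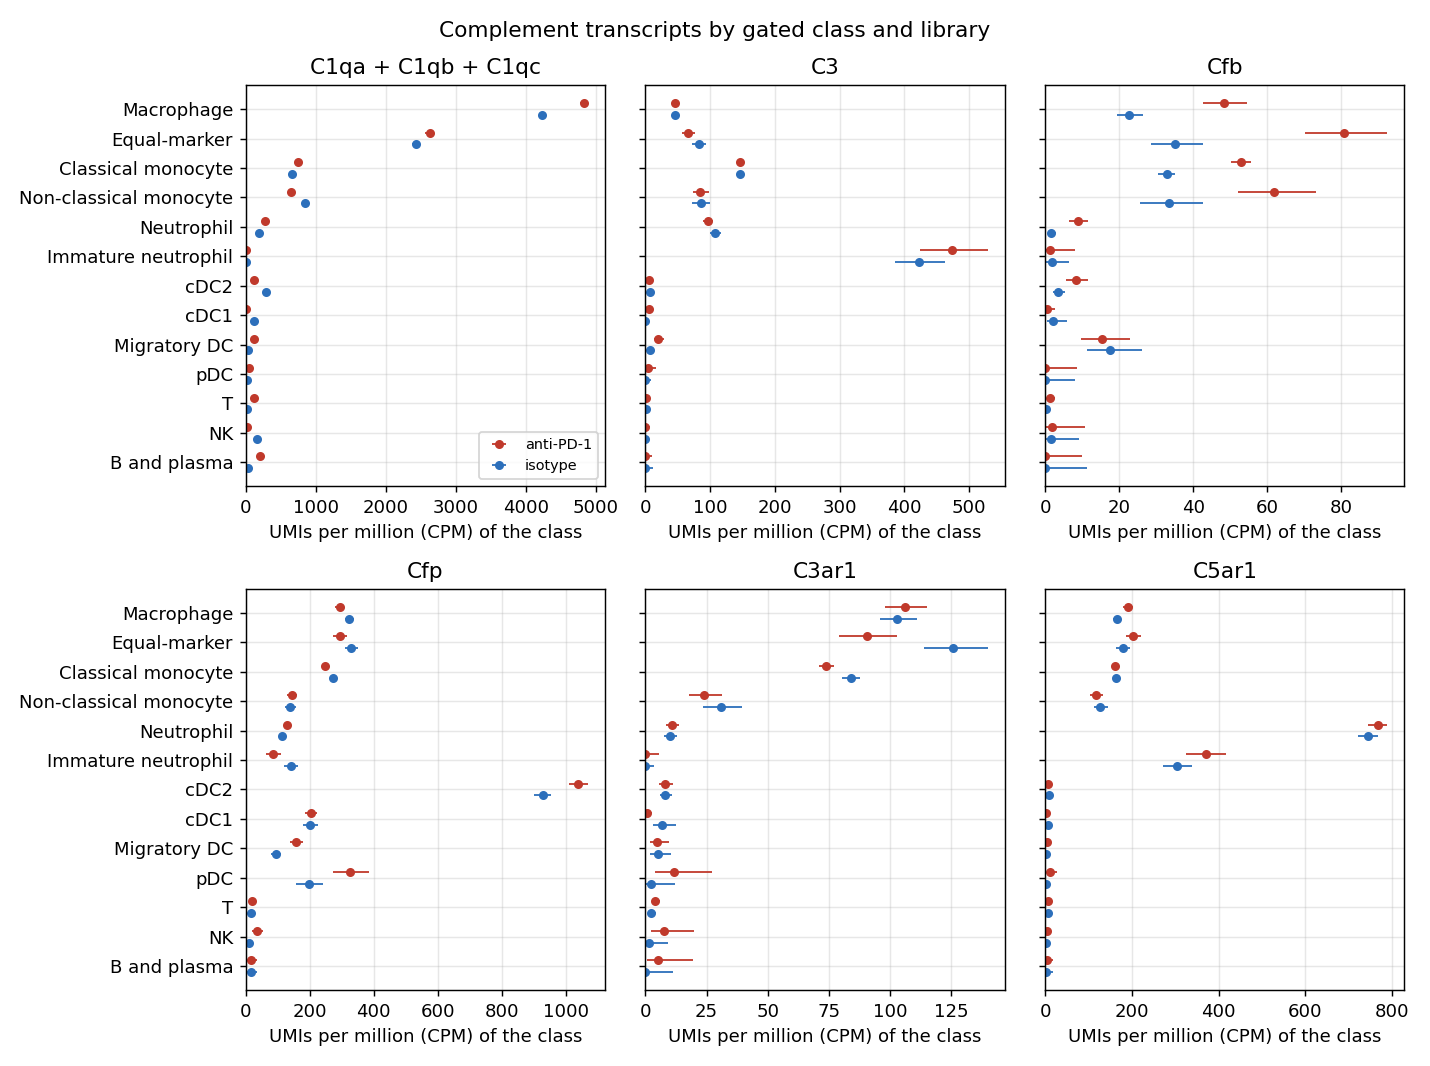
Level of each complement transcript in CPM (x axes) by gated class (y axis), with anti-PD-1 above isotype in each class and bars for exact 95% Poisson intervals. C1q was highest in macrophages, C3 in immature neutrophils, Cfp in cDC2, C5ar1 in neutrophils, and Cfb and C3ar1 in monocyte and macrophage classes.

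All 8 genes lie on the minus strand in GENCODE vM21 on mm10, the build named in the submitters' processing notes. The 3 C1q genes are neighbours, with C1qb at chr4:136880129-136886187, C1qc at chr4:136889804-136893065 and C1qa at chr4:136895917-136898803. C3 lies at chr17:57203970-57228136 and Cfb at chr17:34856374-34862518. Cfb overlaps Gm20547, a protein-coding model on the same strand for which no row was found in the matrices. The remaining genes are Cfp at chrX:20925454-20931555, C3ar1 at chr6:122847138-122856161 and C5ar1 at chr7:16246743-16259540.

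Upstream sequence is shown for C1qb and C3, because their levels ran in opposite directions between monocytes and macrophages. Each run holds the 250 bases before the RefSeq start site on GRCm38.p6, on the minus strand, at chr4:136886201-136886450 for C1qb and chr17:57228137-57228386 for C3. Capitals mark the motif match.
C1qb: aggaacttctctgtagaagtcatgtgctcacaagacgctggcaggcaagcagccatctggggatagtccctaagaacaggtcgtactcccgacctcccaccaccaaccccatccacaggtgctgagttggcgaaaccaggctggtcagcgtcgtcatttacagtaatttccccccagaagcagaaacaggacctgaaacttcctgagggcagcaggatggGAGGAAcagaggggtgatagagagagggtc
C3: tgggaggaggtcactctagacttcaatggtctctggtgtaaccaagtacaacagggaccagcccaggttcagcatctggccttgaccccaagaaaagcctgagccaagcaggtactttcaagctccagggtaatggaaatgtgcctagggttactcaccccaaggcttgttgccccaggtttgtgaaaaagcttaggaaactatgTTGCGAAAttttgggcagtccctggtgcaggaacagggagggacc
Both strands were searched for 5 motifs: GAGGAA (core of PU.1, a myeloid factor), TTGCNNAA (C/EBP-like), TTCNNNGAA (gamma-activated site), the interferon-stimulated response core and TATAAA. The C1qb run held GAGGAA at bases -30 to -25 from the start site, and the C3 run held the TTGCNNAA match at -45 to -38. No other of these motifs was found in either run. Among 32851 promoters of this length, 23.3% held the PU.1 core, 9.56% the C/EBP-like motif, 7.02% the gamma-activated site, 2.98% the interferon-stimulated core and 12.4% TATAAA. The matches describe letters only and are no evidence of binding. The table held 6 of the 8 genes, with none for C1qa and Cfb.

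C1q transcripts were most abundant in macrophages, at 4830 CPM (4770 to 4890) with anti-PD-1 and 4230 (4190 to 4280) with isotype. Cells with equal markers had 2630 and 2430 CPM, and classical monocytes 749 and 655. Non-classical monocytes, the patrolling type, had 641 CPM under anti-PD-1 and 850 under isotype. The first 3 classes were therefore slightly higher in the anti-PD-1 library and non-classical monocytes lower. The log2 ratio was 0.19 (0.17 to 0.21) in macrophages, 0.11 (0.06 to 0.16) in cells with equal markers and 0.19 (0.16 to 0.22) in classical monocytes. Other settings gave wider ranges, of 0.104 to 0.217, 0.066 to 0.165 and 0.14 to 0.325 in that order. In non-classical monocytes the log2 ratio was -0.41 (-0.51 to -0.30), but -1.25 with a margin of 2 markers and -0.24 without the cell with most UMIs. Only 50 of 298 anti-PD-1 and 56 of 242 isotype non-classical monocytes had C1q. The 5% of them with most C1q UMIs held 73.7% and 69.0% of the class's C1q UMIs.

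The 3 chains had similar ratios. In macrophages C1qa had 1240 CPM with anti-PD-1 and 1090 with isotype, C1qb 2300 and 1990, and C1qc 1280 and 1150. Their log2 ratios were 0.19, 0.21 and 0.16. C1qb supplied 47.8% of macrophage C1q UMIs under anti-PD-1 (Clopper-Pearson interval 47.2 to 48.3) and 47.1% under isotype (46.6 to 47.7). In classical monocytes it supplied 54.0% (53.3 to 54.6) and 53.4% (52.6 to 54.2). The C1qb share was thus higher in monocytes than in macrophages in both libraries, by more than counting error. These shares describe the UMIs and are not levels per length. Among macrophages with any chain, all 3 chains were seen together in 82.1% of anti-PD-1 and 84.3% of isotype cells, against 55.0% and 54.2% of classical monocytes with any chain.

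C1q was unevenly spread over cells. After thinning, 69.7% of anti-PD-1 macrophages (66.4 to 72.9) and 66.4% of isotype macrophages (63.2 to 69.5) had a C1q UMI, a difference of 3.31 points (-1.18 to 7.76) that counting error covers. Without thinning the shares were 75.5% and 73.3%. At least 6 C1q UMIs of 1000 were found in 33.7% (30.4 to 37.1) of anti-PD-1 and 29.2% (26.2 to 32.3) of isotype macrophages. In classical monocytes 17.9% of anti-PD-1 and 16.8% of isotype cells had a C1q UMI, and in T cells 2.59% and 0.41%. The 5% of classical monocytes with most C1q UMIs held 58.1% of the C1q UMIs of that class under anti-PD-1 and 58.9% under isotype, while the same fraction of macrophages held 22.7% and 22.4%.

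**Figure D2:**
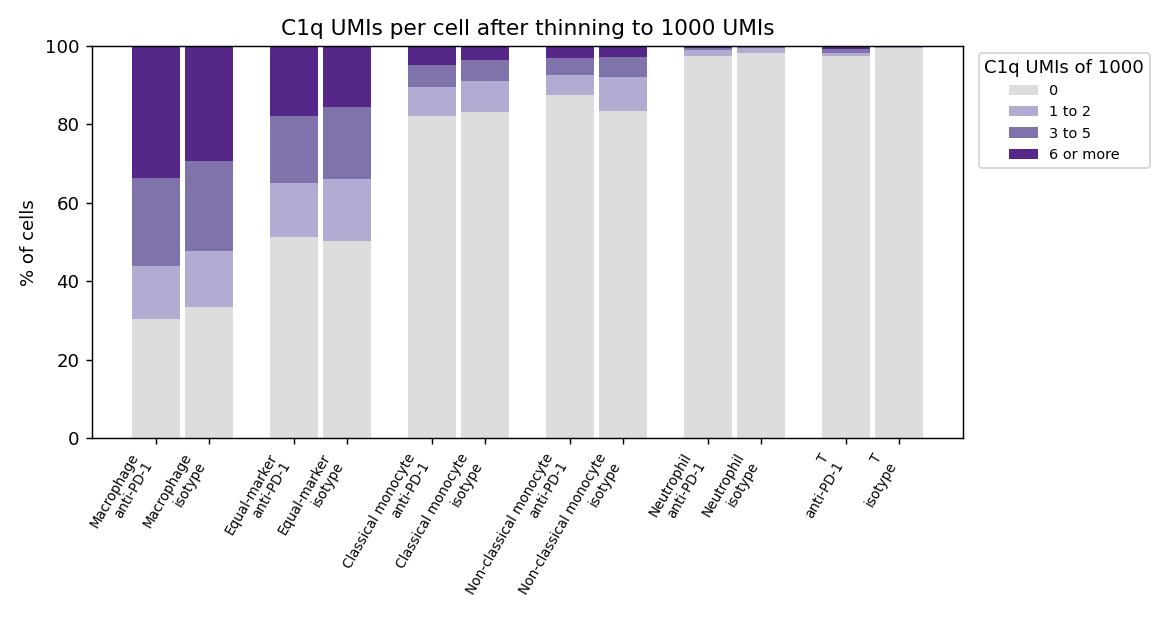
Share of cells (y axis, %) by number of C1q UMIs after thinning each cell to 1000 UMIs, for 6 classes with anti-PD-1 left of isotype. In macrophages 30.3% of anti-PD-1 and 33.6% of isotype cells had none, against 82.1% and 83.2% of classical monocytes.

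Over the whole library C1q was 987 CPM under anti-PD-1 and 1050 under isotype, a log2 ratio of -0.08 (-0.10 to -0.07), with the opposite sign to macrophages, cells with equal markers and classical monocytes taken singly. The pooled monocyte and macrophage lineage gave 1490 and 1570 CPM, a ratio of -0.08 (-0.10 to -0.06). When the 3 classes were given the same shares of the lineage in both libraries, it gave 1630 and 1440 CPM, a ratio of 0.18. Class sizes differed in the same cells: macrophages were 8.21% of kept anti-PD-1 and 9.55% of kept isotype cells, and classical monocytes 33.6% and 27.7%. Macrophages held 40.0% of all C1q UMIs under anti-PD-1 and 46.6% under isotype, and classical monocytes 32.5% and 23.6%.

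C1q outside the monocyte and macrophage classes rested on few cells. Neutrophils had 272 and 193 CPM in the anti-PD-1 and isotype libraries from 75 of 2364 and 97 of 2476 cells. cDC2 had 116 and 283 CPM from 27 of 297 and 70 of 383 cells. Migratory dendritic cells had 116 and 24.2 CPM from 11 and 5 cells, and cDC1 had 1 UMI under anti-PD-1 against 178 under isotype, 46.1% of them in 1 cell. T cells had 115 CPM under anti-PD-1 from 29 of 579 cells and 18.0 under isotype from 11 of 491 cells. All 95 C1q UMIs of isotype NK cells were in 1 cell, while the anti-PD-1 NK cells had 11 UMIs. Immature neutrophils had 0 UMIs in 52 anti-PD-1 cells and 2 in 80 isotype cells, where the exact Clopper-Pearson upper bound for 0 of 52 cells is 6.85%. The direction varied between classes, and in cDC2 and NK cells it turned in clusters, to log2 ratios of 0.29 and 5.21, against -1.29 and -2.88 in the gates. In migratory dendritic cells it was 2.26 (1.72 to 2.85), but -0.20 with doublets kept. In cDC1 it was -7.92 (-13.2 to -5.42) on that 1 UMI, but -0.36 in clusters and -2.72 on thinned cells.

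Macrophage markers were more frequent in T cells and neutrophils with C1q than in those without, but not in the 1 anti-PD-1 cDC1 cell or the isotype immature neutrophils with C1q, which had 0 such markers. T cells with C1q carried on average 2.24 of 8 macrophage markers under anti-PD-1, against 0.0782 in T cells without C1q; the isotype values were 0.818 and 0.0646. Their mean doublet score was 0.139 against 0.0621 under anti-PD-1 and 0.0776 against 0.054 under isotype. Neutrophils with C1q carried 1.49 macrophage markers against 0.134 under anti-PD-1 and 1.11 against 0.0988 under isotype. The part of doublets and free RNA in C1q outside macrophages was not tested. With doublets kept, the log2 ratio in T cells was 1.10 in place of 2.67. In neutrophils it was 0.49 (0.38 to 0.60), but -0.45 in clusters and -0.14 with a stricter gate.

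**Figure D3:**
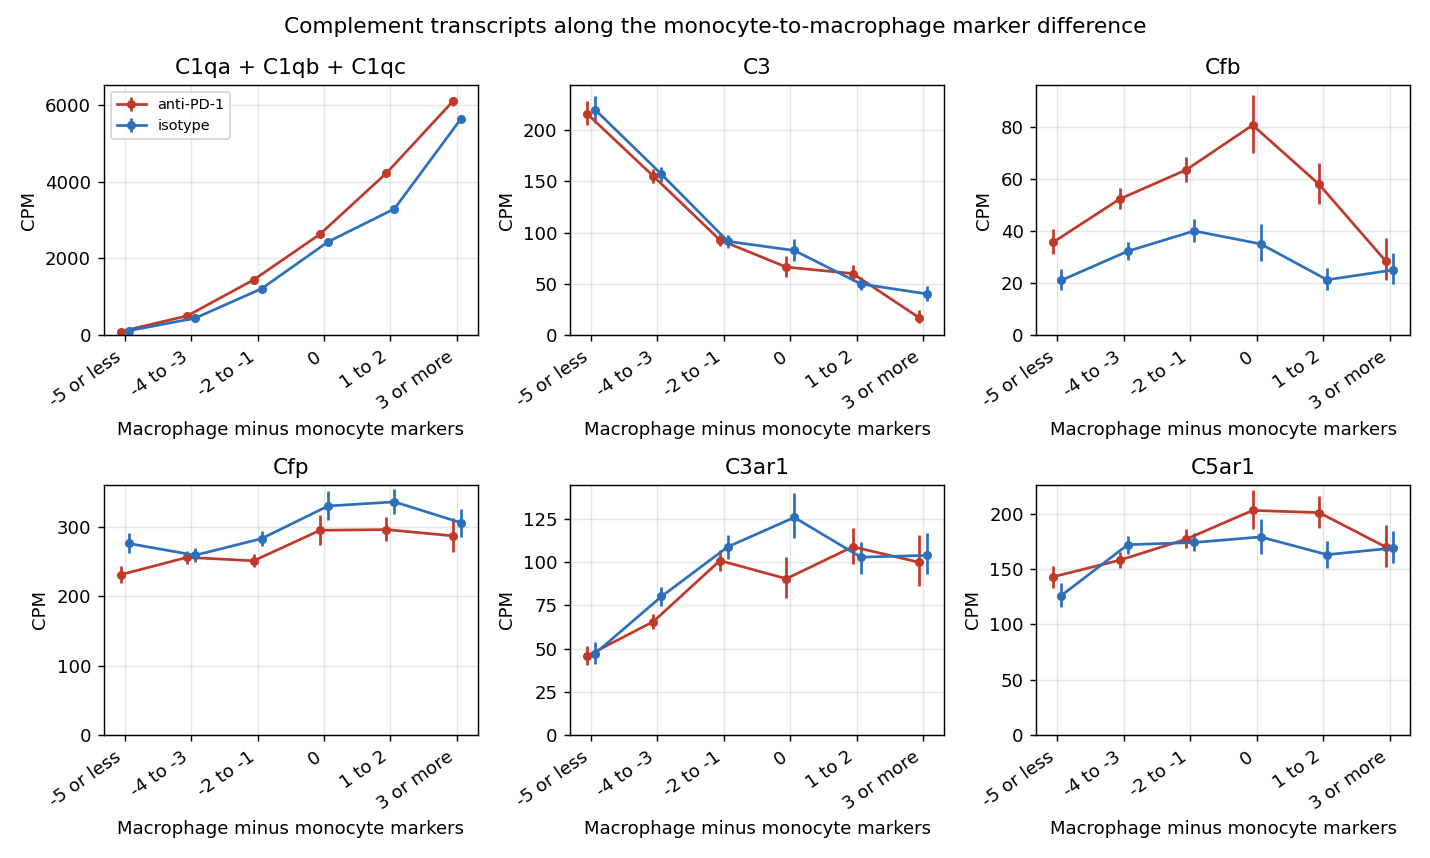
Level in CPM (y axes, from 0) in monocyte and macrophage cells binned by macrophage minus monocyte markers (x axes). Anti-PD-1 and isotype are separate lines, with bars for exact 95% Clopper-Pearson intervals. C1q climbed to 6090 and 5630 in the last bin, C3 dropped to 17.0 and 40.2, and Cfb peaked between the ends.

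Along the marker difference, C1q and C3 ran in opposite directions. From the most monocyte-like to the most macrophage-like bin, C1q was 95.3, 502, 1440, 2630, 4220 and 6090 CPM under anti-PD-1. Under isotype it was 116, 443, 1210, 2430, 3290 and 5630 CPM. C3 was 216, 155, 92.8, 66.4, 60.1 and 17.0 CPM under anti-PD-1, and the isotype values started at 220, 157, 91.5 and 82.6 and ended at 40.2. In the bin before the last, 227 anti-PD-1 UMIs (52.5 to 68.4 CPM) and 221 isotype UMIs (43.6 to 57.1 CPM) gave overlapping intervals with anti-PD-1 the higher. In the last bin the C3 level was lower in the anti-PD-1 library, with 31 UMIs (interval 11.6 to 24.2 CPM) against 120 UMIs (33.3 to 48.0 CPM). C3 also fell when lineage cells were sorted by C1q: it was 137 CPM under anti-PD-1 and 131 under isotype in thinned cells without C1q, and 64.9 and 45.3 in those with at least 3 C1q UMIs. In the latter the anti-PD-1 level was the higher, unlike in the last marker bin, with overlapping intervals (49.3 to 84.0 and 31.8 to 62.8 CPM).

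C3, the central component, was highest in immature neutrophils, with 474 CPM (424 to 529) under anti-PD-1 and 423 (386 to 463) under isotype. These cells were few, 52 and 80. Classical monocytes had 146 CPM in each library, neutrophils 97.1 and 108, non-classical monocytes 84.9 and 85.1, and macrophages 46.1 and 46.0. The neutrophil and non-classical intervals overlapped under anti-PD-1 (89.2 to 105 and 73.4 to 97.8), and under isotype they nearly met (99.5 to 117 and 72.5 to 99.2). Between libraries C3 differed little: the log2 ratio was -0.002 (-0.07 to 0.06) in classical monocytes, 0.001 (-0.24 to 0.24) in macrophages, 0.17 (-0.04 to 0.37) in immature neutrophils and -0.15 (-0.32 to 0.02) in neutrophils. It was -0.32 (-0.61 to -0.03) in cells with equal markers. T cells had 6 UMIs under anti-PD-1 and 4 under isotype, and no UMI was seen in NK, B or plasma cells. Markers of hepatocytes, which make most plasma C3, were near 0: over all kept cells Alb had 1 UMI in each library, Ttr 0 and 1, Apoa1 4 and 3, and Afp 35 and 35. The exception was Trf, which had 12022 UMIs under anti-PD-1 and 13959 under isotype. Without Trf, the other 7 hepatocyte markers summed to 12 UMIs in the classical monocytes of each library, and to 0 in immature neutrophils.

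Cfb, the alternative pathway protease, had the largest library difference of these genes in all 4 monocyte and macrophage classes. Macrophages had 48.4 CPM (42.8 to 54.5) under anti-PD-1 and 22.8 (19.5 to 26.5) under isotype, and cells with equal markers 80.8 (70.2 to 92.5) and 35.1 (28.6 to 42.6). Classical monocytes had 52.9 (50.3 to 55.6) and 32.9 (30.6 to 35.2), and non-classical monocytes 61.9 (52.1 to 73.1) and 33.4 (25.7 to 42.6). In each of these 4 classes the anti-PD-1 interval lay above the isotype one. The log2 ratios were 1.09 (0.80 to 1.37), 1.20 (0.85 to 1.56), 0.69 (0.56 to 0.81) and 0.89 (0.45 to 1.34) in that order. In macrophage clusters built without complement genes the ratio was 0.53, under 1.5-fold. Over the whole library Cfb was 36.9 and 21.3 CPM, a ratio of 0.80 (0.70 to 0.89).

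The difference was also visible in cells. After thinning, 4.82% of anti-PD-1 classical monocytes (4.11 to 5.61) and 2.97% of isotype ones (2.35 to 3.70) had a Cfb UMI, a difference of 1.85 points (0.85 to 2.84). In macrophages the shares were 3.30% and 2.05%, and the difference of 1.25 points (-0.32 to 2.91) was within counting error. T cells, which should lack the gene, had shares of 0.17% and 0%, 1 cell in all. Along the marker difference Cfb was 35.8, 52.4, 63.6, 80.8, 58.0 and 28.6 CPM under anti-PD-1, and 21.1, 32.3, 40.1, 35.1, 21.3 and 25.1 under isotype. It was highest in the middle of the range, and the libraries' intervals overlapped only in the most macrophage-like bin. Neutrophils had 51 Cfb UMIs in 15 cells under anti-PD-1 and 9 in 5 cells under isotype, too few cells to describe that class.

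**Figure D4:**
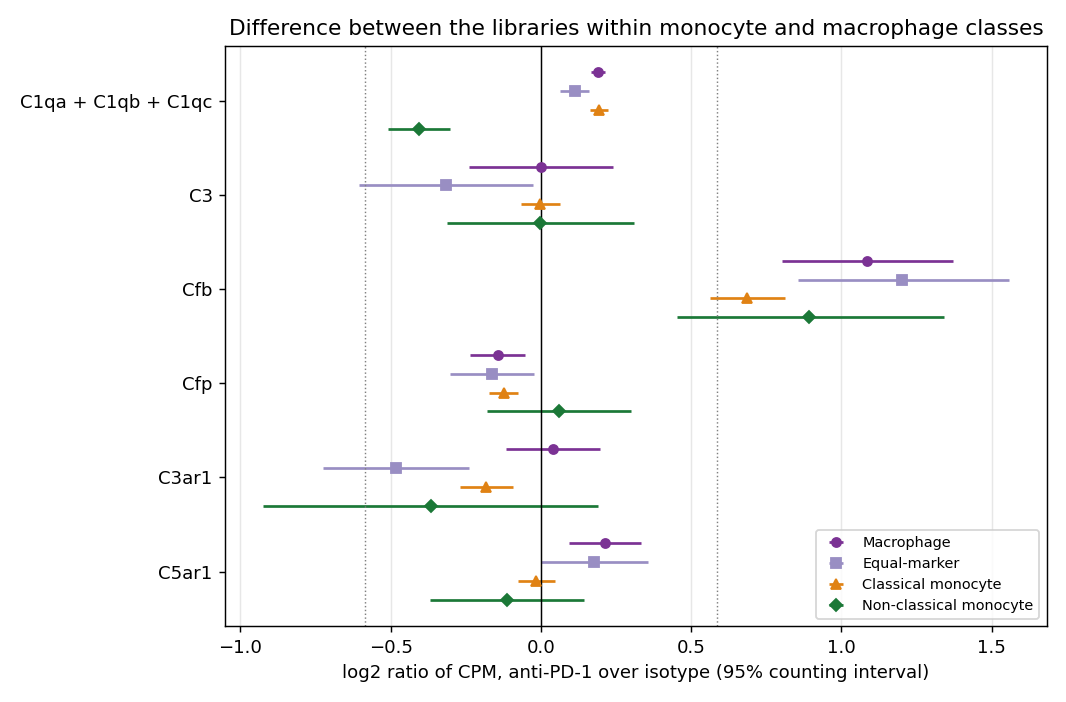
Log2 ratio of level between anti-PD-1 and isotype (x axis), for each complement transcript (y axis) in 4 monocyte and macrophage classes, with exact 95% counting intervals and dotted lines at 1.5-fold. Cfb lay to the right in all 4 classes, from 0.69 to 1.20, and the other transcripts lay nearer to 0, from -0.48 to 0.21.

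Cells with Cxcl9, an interferon-induced chemokine, were the ones with most Cfb. In the monocyte and macrophage lineage Cfb was 157 CPM in 815 anti-PD-1 cells with a Cxcl9 UMI and 27.8 in 3552 without, a log2 ratio of 2.49 (2.36 to 2.62). In the isotype library it was 108 CPM in 458 cells with Cxcl9 and 18.5 in 3310 without, a ratio of 2.55 (2.37 to 2.72). Cells with Cxcl9 were deeper, with medians of 8800 against 8074 UMIs under anti-PD-1 and 9642 against 8598 under isotype. Within cells with Cxcl9 the library ratio of Cfb was 0.53 (0.38 to 0.68), and within cells without it 0.59 (0.43 to 0.74). The pooled lineage ratio was 0.81 (0.70 to 0.92), so the difference was smaller inside either group and remained above 0 in both. Arg1, a gene of alternatively activated and hypoxic macrophages, went the other way: Cfb was 36.4 CPM in cells with Arg1 and 66.3 without under anti-PD-1, and 25.4 and 37.0 under isotype.

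**Figure D5:**
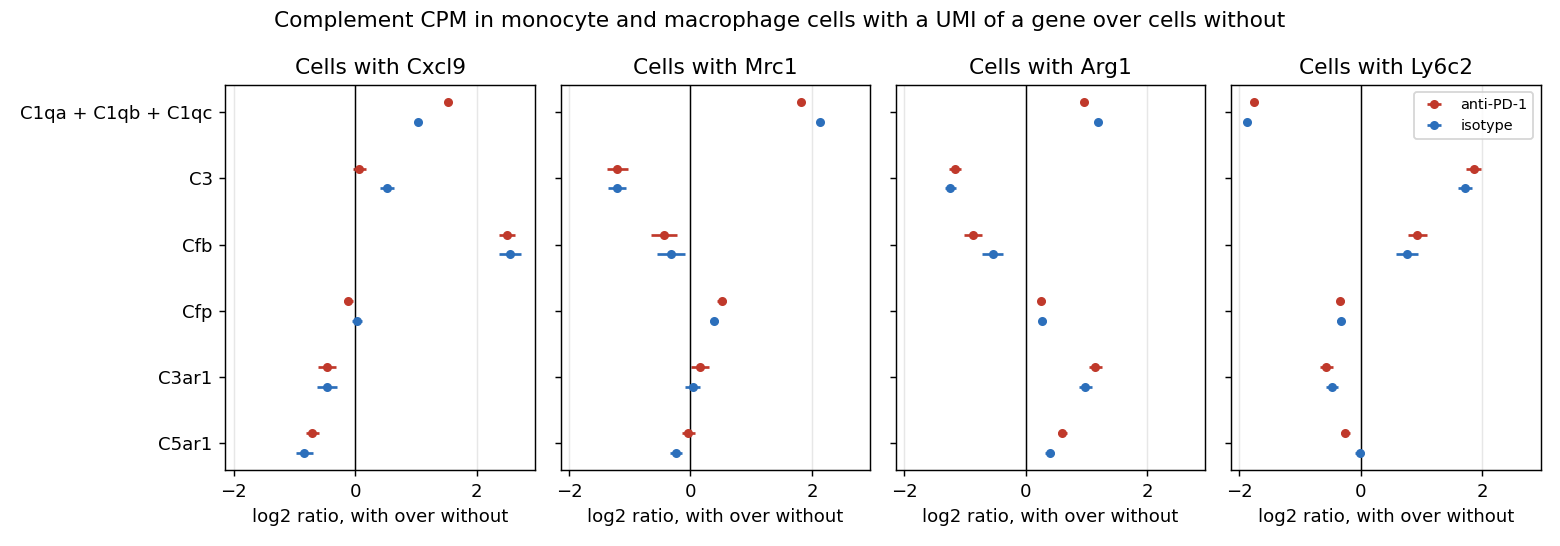
Log2 ratio of level (x axes) in monocyte and macrophage cells with at least 1 UMI of Cxcl9, Mrc1, Arg1 or Ly6c2 over cells without, for each complement transcript (y axis), with anti-PD-1 above isotype and exact 95% counting intervals. Cfb was far higher with Cxcl9, at 2.49 and 2.55, C3 was higher with Ly6c2, at 1.85 and 1.71, and C3ar1 was higher with Arg1 over the pooled lineage, at 1.14 and 0.98.

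Ly6c2 and Mrc1 are markers of the gates themselves, and split the other members accordingly. C3 was 168 CPM with Ly6c2, an inflammatory monocyte antigen, and 46.5 without under anti-PD-1, and 176 and 53.6 under isotype. C1q was 3950 CPM with Mrc1, the mannose receptor gene, and 1120 without under anti-PD-1, and 4040 and 918 under isotype. Within macrophages these splits were smaller: the log2 ratio of C3 with over without Ly6c2 was 1.04 under anti-PD-1 and 1.08 under isotype, and that of C1q with over without Mrc1 was 0.57 and 0.82. C1q was lower with Arg1 inside macrophages, at 4350 CPM with and 6110 without under anti-PD-1, and 3920 and 5440 under isotype. In the pooled lineage it was higher with Arg1, with log2 ratios of 0.97 and 1.19. Within macrophages the library ratio of C1q was 0.41 (0.36 to 0.46) in cells with Cxcl9 and 0.06 (0.03 to 0.08) in those without. In the pooled lineage that library ratio was 0.13 (0.10 to 0.16) with Cxcl9 and -0.35 (-0.37 to -0.33) without.

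Cfp, which encodes properdin, was highest in cDC2, a dendritic cell type that primes helper T cells, with 1040 CPM (1010 to 1070) under anti-PD-1 and 928 (901 to 955) under isotype. Macrophages had 293 and 324 CPM, cells with equal markers 295 and 330, and classical monocytes 249 and 271. cDC1 had 203 and 202, migratory dendritic cells 157 and 93.8, non-classical monocytes 145 and 139, and neutrophils 130 and 114. Plasmacytoid dendritic cells had 325 CPM from 47 cells and 196 from 58, too few to set against the others. T cells had 20.2 and 17.0 CPM. Counting error covered the order of macrophages and cells with equal markers in both libraries. After thinning, 56.6% of anti-PD-1 and 53.5% of isotype cDC2 had a Cfp UMI, against 1.04% and 0.62% of T cells.

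Cfp was slightly lower under anti-PD-1 in macrophages, with a log2 ratio of -0.14 (-0.24 to -0.05), and in classical monocytes, with -0.12 (-0.17 to -0.08). In cDC2 it was slightly higher, at 0.16 (0.10 to 0.22). Over other settings these ratios came as near to 0 as -0.035 in macrophages, -0.051 in classical monocytes and 0.055 in cDC2. Migratory dendritic cells had 236 UMIs under anti-PD-1 and 128 under isotype, a ratio of 0.74 (0.42 to 1.06), but -0.21 in clusters. Immature neutrophils had 84.1 CPM and 140 CPM, a ratio of -0.73 (-1.19 to -0.29).

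C3ar1, the C3a receptor gene, was a monocyte and macrophage transcript. Macrophages had 106 CPM (97.9 to 115) under anti-PD-1 and 103 (96.1 to 111) under isotype, cells with equal markers 90.5 and 126, classical monocytes 74.0 and 83.9, and non-classical monocytes 23.9 and 30.8. Neutrophils had 10.7 and 9.86 CPM, cDC2 7.98 and 8.10, and immature neutrophils 0 UMIs in both libraries. The log2 ratio was 0.04 (-0.12 to 0.20) in macrophages, but -0.24 on thinned cells, -0.48 (-0.72 to -0.24) in cells with equal markers (-0.10 with the margin of 2 markers, -0.98 on thinned cells) and -0.18 (-0.27 to -0.09) in classical monocytes. Across the pooled lineage C3ar1 was 118 CPM in cells with Arg1 and 53.7 without under anti-PD-1, and 120 and 60.6 under isotype. Within macrophages it was 109 with Arg1 and 98.9 without under anti-PD-1, and 107 and 90.3 under isotype, log2 ratios of 0.14 (-0.13 to 0.42) and 0.24 (-0.03 to 0.52) that counting error covers. With Cxcl9 it was lower, at 61.5 against 84.7 CPM without under anti-PD-1 and 69.3 against 95.2 under isotype.

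C5ar1, the C5a receptor gene, was highest in neutrophils, with 767 CPM (744 to 789) under anti-PD-1 and 744 (722 to 767) under isotype. Immature neutrophils had 370 and 304, macrophages 191 and 165, cells with equal markers 203 and 179, classical monocytes 162 and 163, and non-classical monocytes 118 and 127. Dendritic cells had at most 11.6 CPM, and T cells had 6.39 and 5.83. Neutrophils thus differed from every other class by more than counting error in both libraries. After thinning, 46.3% of anti-PD-1 neutrophils (44.2 to 48.4) and 46.2% of isotype neutrophils (44.1 to 48.4) had a C5ar1 UMI, against 0.52% and 0% of T cells. The neutrophil log2 ratio was 0.04 (-0.02 to 0.10), and the macrophage ratio was 0.21 (0.09 to 0.33). The receptors thus differed in neutrophils, where C3ar1 was low and C5ar1 highest, while monocyte and macrophage classes held transcripts of both.

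Set against all genes, the members were mostly below the 1.5-fold line. In macrophages 1 of 8 was higher by over 1.5-fold, Cfb, where 3.26% of the 8550 genes with at least 50 UMIs were, and 0 were lower, where 1.43% were. Cells with equal markers had Cfb higher alone (background 4.96% higher, 2.21% lower), as had classical monocytes (2.15% and 1.44%) and non-classical monocytes (5.43% and 1.82%). Neutrophils had C1qa and Cfb higher (5.78% and 1.84%), on the few cells described above. Lower by over 1.5-fold was Cfp among 3 members with at least 50 UMIs in immature neutrophils (background 7.39% higher, 4.14% lower). In cDC2, C1qa, C1qb, C1qc and C5ar1 were lower by over 1.5-fold among 7 (4.81% and 2.20%). The C5ar1 ratio there was -0.655 (-1.464 to 0.115), on 22 anti-PD-1 and 44 isotype UMIs, which counting error covers. The C1q chains turned sign in cDC2 clusters. cDC1 had C1qb lower among 2 (7.94% and 2.30%), NK cells C1qb lower among 1 (8% and 4.35%), migratory dendritic cells C1qb and Cfp higher among 2 (5.08% and 3.69%), and T cells C1qa, C1qb and C1qc higher among 5 (6.68% and 3.53%). In these classes too C1q rested on the few cells described above, and Cfp in migratory dendritic cells was -0.21 in clusters. In the pooled lineage Cfb was higher alone (2.20% and 1.49%). The median log2 ratio of the 8 members in macrophages was 0.17, and that of all genes 0.05.

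Of 44 other complement and complement-related genes, 8 had no UMI in the kept cells: C1rb, C7, C8b, Cfd, Mbl1, Mbl2, C4bp and Cd55b. In macrophages 13 of the 44 had at least 50 UMIs, and 0 of them passed 1.5-fold in either direction, with a median log2 ratio of 0.03. In classical monocytes 1 of 14 passed, C4b, with 5.18 CPM under anti-PD-1 and 3.30 under isotype, a ratio of 0.65 (0.25 to 1.06). C4b encodes a C4 component of the classical pathway, and its reads may be split with the near-identical C4a. C2, the classical pathway counterpart of Cfb, had 34 and 28 UMIs over all kept cells. Fcnb, a ficolin that starts the lectin pathway, was 236 and 406 CPM in immature neutrophils, a ratio of -0.78 (-1.05 to -0.52). C1ra, a protease that C1q activates, had 6.07 and 5.00 CPM in macrophages. Itgam and Itgb2 encode the chains of complement receptor 3, and in classical monocytes had 420 and 452 CPM and 342 and 315 CPM.

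Genes with the most similar class profile were found by Pearson correlation of log2(CPM + 1) over 22 points, 11 classes in 2 libraries, among 7912 genes. The points share cells and libraries, so the values are descriptions. For C1q these included Zfp703 (0.92) and Apoe (0.92), of which Apoe is a macrophage marker of the gate. For C3 they were Irak3 (0.95), Trem3 (0.95) and Igsf6 (0.94), and for Cfb Rin2 (0.92), Blvrb (0.92) and Arhgef10l (0.92). Cfp was most like Lmo2 (0.92), Tbxas1 (0.90) and Plbd1 (0.88). Genes most like C3ar1 included Trem2 (0.97), a gate marker, and Fn1 (0.95), and C5ar1 was most like Cd14 (0.97), Cebpb (0.96) and Slpi (0.96).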

How the data were processed

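The deposited matrices hold raw UMI counts per gene and barcode, with no normalization, per the file headers. Those headers give Cell Ranger 5.0.1 as the software, which conflicts with version 2.1.1 in the submitters' processing notes, where the build is mm10. Cells with at least 500 UMIs, 200 genes and at most 10% mitochondrial UMIs were kept. scrublet (scanpy 1.11.5) ran at an expected doublet rate of 0.06. Its automatic threshold marked 1 barcode per library and had not worked, so scores over 0.25 were removed: 303 anti-PD-1 (3.03%) and 288 isotype barcodes (3.01%). A cell joined the class with the highest share of detected markers among 18 panels, with at least 3 detected, which placed 86.3% of anti-PD-1 and 84.7% of isotype cells. Of 16241 placed cells, 11.0% lay within 1 marker of another panel. Classes under 50 cells in a library were not compared.

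UMI counts were summed by class and divided by the class total. Ratios carry exact conditional binomial 95% intervals, shares Clopper-Pearson and differences Newcombe intervals. Gene ratios against 0 use a floor of 3 counts over the class. Thinning to 1000 UMIs left out 398 anti-PD-1 and 580 isotype cells. The ratio intervals were tested on simulated Poisson sums for macrophages. These sums leave out the uneven spread of UMIs over cells, so they cover counting error only. All 8 members, and of 44 other complement and complement-related genes those with at least 50 UMIs in a class, could be named. The members, gene lists and gates were chosen with earlier results of these data known. Alternatives were other filters, gates, clusters, scaling (TMM, edgeR 4.0.16 in R 4.3.3), cell means and thinning. Python 3.11.15, numpy 2.4.6, pandas 2.3.3 and scipy 1.17.1 were used. Some genes that the naming rule would include are not reported here.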

Additional observations from a re-analysis of the deposited data

Results flagged for a closer look

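C1q and Cfp were singled out because their anti-PD-1 over isotype log2 ratios excluded 0 in opposite directions in different cell classes; the difference between classes was not tested. C1q was higher under anti-PD-1 in macrophages (0.19), cells with equal markers (0.11), classical monocytes (0.19), neutrophils (0.49), migratory dendritic cells (2.26) and T cells (2.67). It was lower in non-classical monocytes (-0.41), cDC2 (-1.29), cDC1 (-7.92, -13.2 to -5.42, on 1 anti-PD-1 UMI) and NK cells (-2.88). Other settings turned the sign in neutrophils (-0.45 in clusters), migratory dendritic cells (-0.20 with doublets kept), cDC2 (0.29 in clusters) and NK cells (5.21 in clusters), and gave -0.36 in cDC1 clusters. In classes outside monocytes and macrophages these ratios rest on 1 to 97 cells with C1q per library. The non-classical monocyte ratio also rests on few, 50 of 298 anti-PD-1 and 56 of 242 isotype cells.

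Cfp was higher under anti-PD-1 in neutrophils (0.19), cDC2 (0.16) and migratory dendritic cells (0.74). It was lower in macrophages (-0.14), cells with equal markers (-0.16), classical monocytes (-0.12) and immature neutrophils (-0.73). Over other settings the higher ratios fell as low as 0.038 in neutrophils, 0.055 in cDC2 and -0.21 in migratory dendritic cells. The lower ratios rose at most to -0.035 in macrophages, -0.148 with equal markers, -0.051 in classical monocytes and -0.415 in immature neutrophils.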

How the results depend on the processing

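Over 76 results with up to 10 alternatives each, 695 values were obtained. Of these, 550 stayed within the counting interval of the reported value, 128 left it and 17 changed sign from a value past 1.5-fold. Mitochondrial limits of 5% and 20% and a minimum of 1000 UMIs moved none of 70 ratios each. Thinning to 1000 UMIs took 38 ratios out of their interval and left 28 inside. A margin of 2 markers took out 28, turned the sign of 4 and left 38. Clusters took out 17, turned the sign of 8 and left 32. In macrophages the C1q ratio was 0.22 with a margin of 2 markers, 0.10 in clusters built without complement genes and 0.12 under TMM. That of Cfb was 0.76 with the margin and 0.53 in clusters. On thinned cells the ratios were -0.24 for C3ar1, 0.37 for C5ar1 and -0.035 for Cfp. Without thinning, the share differences in macrophages were -2.40 points for C3, -3.06 for C5ar1, 5.70 for Cfb and -9.23 for Cfp, where the isotype cells were deeper (medians of 6421 UMIs under anti-PD-1 and 7805 under isotype).

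Smaller ratios changed sign in macrophages too, as C3ar1 did from 0.04 to -0.24 on thinned cells. Signs changed from a value past 1.5-fold only outside macrophages. In cDC2, C1q was 0.077 with the margin and 0.29 in clusters, C1qa 0.47 and C1qb 0.15 in clusters, C1qc 0.45 with the margin and 0.41 in clusters, and C5ar1 0.076 with the margin. In NK cells, C1q was 0.53 with doublets kept, 5.21 in clusters and 2.08 without the cell with most UMIs, and C1qb 0.76, 4.16 and 1.62 under the same settings. C1qa in neutrophils was -0.043 with the margin and -0.73 in clusters. In migratory dendritic cells C1q was -0.20 with doublets kept and Cfp -0.21 in clusters. The cause was not tested. TMM shifted all ratios of a class by -0.04 to -0.13, and by over 0.1 in immature neutrophils (-0.13), cDC2 (-0.11) and cDC1 (-0.10). Clusters gave no non-classical or equal-marker class, so no value. No paired analysis was possible because each group has 1 library. Small classes, low genes such as Cfb and the single library per group limit precision.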
